A study of Talpa occidentalis with 24 samples.

Results

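The Dmrt1 locus of the mouse, the counterpart of human and mole DMRT1, was followed in ovary and testis over a window of 300 kb, mm9 chr19:25480001-25780000. It is 1 of 203 adjoining windows of that length on chr19, and of 8839 on all chromosomes, and was set by position, with no measured value. The gene lies on the plus strand near chr19:25580100-25678800, a span of 98.7 kb that was given for this work and not read from an annotation, so exons, introns and neighbouring genes of the mouse window are not marked. The window was divided into the 500 bins of 200 bp upstream of the gene, the 494 bins that overlap the gene span and the 506 bins downstream, 1500 bins in all.

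DMRT1 is a transcription factor with a zinc-containing DNA-binding fold called the DM domain, and it is best known in the gonad, where it keeps the supporting cells of the testis, the Sertoli cells, from taking on an ovarian fate. It also acts in germ cells of both sexes. In mammals its gene sits beside the genes of its relatives DMRT3 and DMRT2. Chromatin around such developmental genes is often described by histone marks: H3K4me3 lies at promoters, H3K4me1 at enhancers, H3K27ac at active promoters and enhancers, and H3K27me3 is laid down by Polycomb complexes, which keep genes silent. A promoter that carries an active mark and the Polycomb mark together is called bivalent.

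The study applied ChIP-seq, the sequencing of DNA bound by immunoprecipitated chromatin, to these 4 histone marks in gonads of the Iberian mole (Talpa occidentalis) and of the mouse. The labelled samples are 24 libraries from wild type moles at postnatal day 7. The mouse gonads came from embryos at embryonic day 13.5, per the labels' protocols, when ovary and testis have begun to differ. The sources used here give neither their genotype nor the number of mouse libraries.

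For the mouse, the files hold 1 segmentation of the ovary and 1 of the testis. Each gives every 200 bp bin 1 of 7 state names: promoter, bivalent promoter, Polycomb repression, enhancer in an active or a poised form, undefined, or gap. How the authors' states were drawn from the marks is not stated in those sources. Read counts are not part of these files, so the depth is unknown, no value below has a replicate error, and no difference between ovary and testis could be tested. Whole gonads were used, so a state carried by fewer cells and a weaker mark in each cell cannot be told apart. As a check of the labels, the Polycomb state covered 50.8% of the X chromosome in the ovary and 31.4% in the testis, and bins outside the gap state numbered 5699 on the Y chromosome in the testis against 927 in the ovary.

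The Dmrt1 window fell into 3 stretches of different chromatin, in the same order in both gonads. From the upstream edge to 79.9 kb past the gene start, active states covered 30% to 61% of each 20 kb piece in the ovary and 7% to 55% in the testis. A short bivalent and Polycomb stretch lay at the gene start. From the end of the gene onwards active states were nearly absent, at 0% to 3% of a piece in the ovary and 0% to 5% in the testis, and bivalent and Polycomb states together covered most of the flank, though not every piece of it. Differences between the gonads are described at 3 places. At the gene start, the bin holding the start was Polycomb in the ovary and bivalent in the testis, between promoter segments. In the downstream domain the ovary held more bivalent and the testis more Polycomb state. In the upstream flank the ovary held more active enhancer state.

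**Figure D1:**
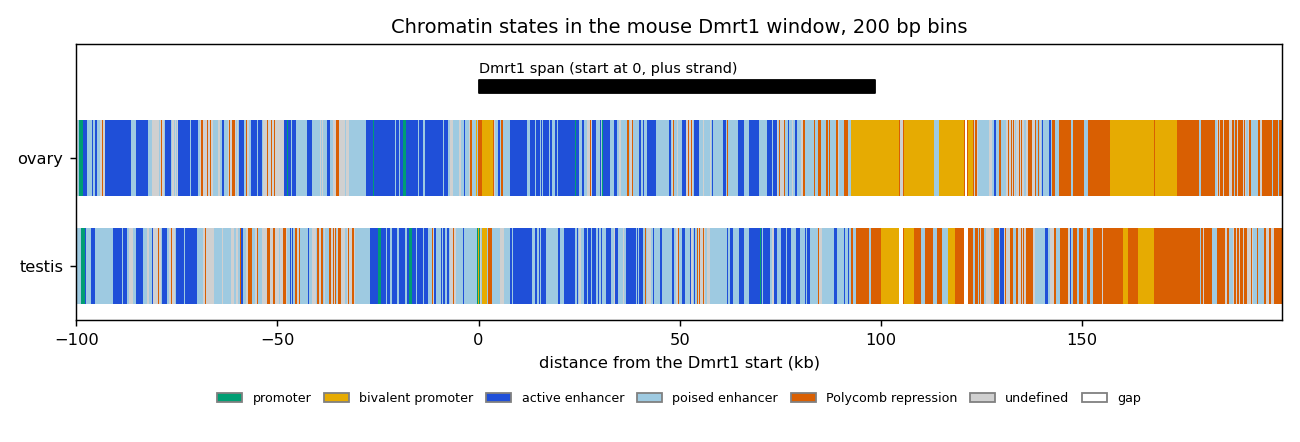
States of the 200 bp bins of the Dmrt1 window in mouse ovary (upper bar) and testis (lower bar), by distance from the gene start in kb; the black bar is the Dmrt1 span. Blue enhancer states fill the left and middle of both bars, and gold bivalent stretches to the right of the gene are longer in the ovary, the longest measuring 12000 bp there and 4400 bp in the testis.

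At the gene start the gonads were in different states. In the ovary the bin that holds the start belonged to a Polycomb segment of 1000 bp, chr19:25580001-25581000. In the testis the same bin was bivalent, and it stood between promoter segments at chr19:25579601-25580000 and chr19:25580201-25580400. Within 1 kb of the start, the testis held 3 promoter, 2 bivalent, 5 poised enhancer, 1 undefined and 0 Polycomb bins among 11. The ovary held 0 promoter, 2 bivalent, 4 poised enhancer and 5 Polycomb bins. The promoter state thus stood on both sides of the bin that holds the Dmrt1 start in the testis alone, over 600 bp in all.

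Further into the gene, from 901 bp past its start, both gonads carried a bivalent segment that began at the same position, 25581001. It was 2800 bp long in the ovary and 1200 bp long in the testis. The testis carried Polycomb state from 2301 to 3300 bp past the start, where the ovary was still bivalent. Within 2 kb of the start, 7 of 21 bins were bivalent in each gonad, 6 of them the same bins. The poised enhancer state took 7 of the 21 in the ovary and 9 in the testis. The Polycomb state took 7 of the 21 in the ovary and 0 in the testis. Such a change of call was common, since over chr19 43.1% of the Polycomb bins of the ovary were Polycomb in the testis. Within 5 kb the Polycomb bins were 9 and 6 of 51, and 0 bins were Polycomb in both gonads. The 6 of the testis all lay beyond 2 kb, in bins that were bivalent in the ovary. The smaller net difference within 5 kb thus joins differences of opposite direction.

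Most promoter bins of the testis on chr19 were also promoter in the ovary. Of the 3031 promoter bins of the testis on chr19, 65.3% were promoter in both. In the ovary 728 (24.0%) were active enhancer, 131 (4.32%) poised enhancer, 110 (3.63%) undefined and 37 (1.22%) Polycomb. The rest were 27 gap and 18 bivalent bins. In the whole Dmrt1 window the testis had 16 promoter bins, of which 9 (56.25%) were active enhancer in the ovary and 3 (18.75%) promoter. Beside the Dmrt1 start the 3 promoter bins of the testis were made up of 2 that were poised and 1 that was Polycomb in the ovary. These are few bins, and single bins often differed between the segmentations, as given next.

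**Figure D2:**
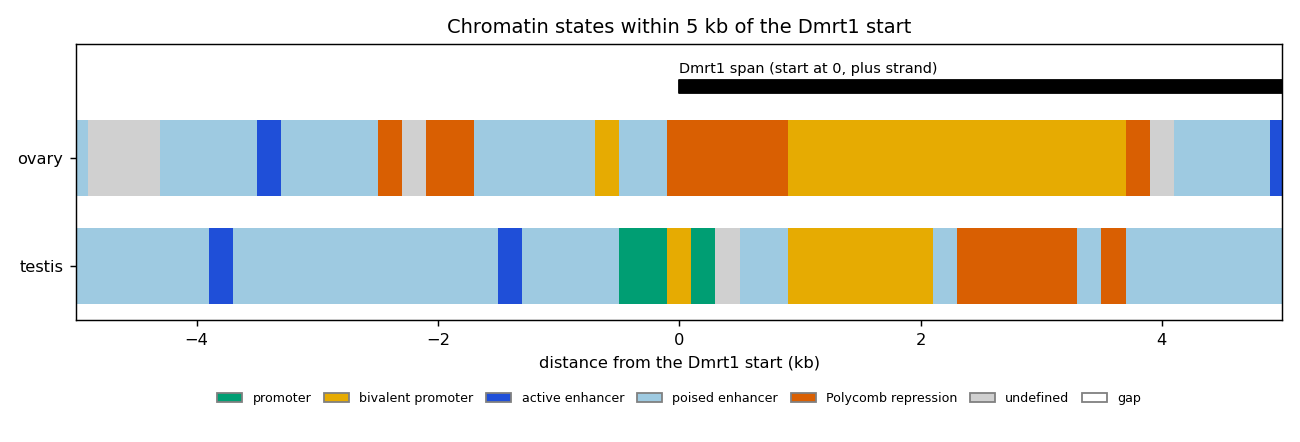
States within 5 kb of the Dmrt1 start (0 on the axis, in kb) in ovary and testis. The orange Polycomb segment over the start in the ovary faces gold bivalent, green promoter, undefined and poised bins in the testis. The bivalent segments downstream begin at the same position.

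Bin by bin, the segmentations disagreed about as often here as on the chromosome, and more often here once small shifts were allowed. In the window 768 of 1500 bins (51.2%) were in another state in the ovary than in the testis, against 48.6% of all chr19 bins. The share was 51.8% in the upstream flank, 52.0% in the gene span and 49.8% in the downstream flank. Among the 203 windows the locus ranked 109th for this share, and the median window held 51.6%. This bin by bin share was thus near that of the chromosome. Gap state, mostly the same in both gonads, covered 9.61% of chr19 but 0.2% of the window in the ovary. When the same state within 200 bp was counted as a match, 36.4% of the bins of the window differed, against 30.9% on chr19. With a match within 1000 bp, 16.9% of the bins of the window differed, against 11.4% on chr19. Moving the testis segmentation along the chromosome by up to 1000 bp in either direction lowered the agreement in the window from 48.8% to between 40.7% and 47.8%, and over chr19 from 51.4% to between 44.7% and 50.4%.

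The bivalent promoter state was extensive in this window, mostly downstream of the gene, and more so in the ovary. It covered 15.5% of the window in the ovary (232 bins) and 5.07% in the testis (76 bins). These shares ranked 4th and 1st among the 203 windows of chr19, where the median windows held 0% and 0.2%. The 1st place in the testis was narrow, since the next window held 5%. The bivalent state was more extensive in the ovary segmentation in general, with 1.14% of chr19 against 0.523% in the testis, a ratio of 2.17. In the Dmrt1 window the ratio was 3.05, and over all chromosomes 1.82. The windows ranked above it in the ovary held 25.9%, 18.5% and 16.3% there, and 4.6%, 4.4% and 5% in the testis. A large ovary excess was thus shared by the windows richest in bivalent state and was not particular to Dmrt1. With the testis scaled to the chr19 total of the ovary, the difference in the window went from -10.4 to -4.46 points and still ranked 4th from the lowest of the 203 windows. The part of unequal calling in this difference was not tested. Past the gene, in the downstream flank, lay 186 of the 232 bivalent bins of the ovary and 69 of the 76 of the testis. Neighbouring mouse genes were not marked, so whether these bins belong to Dmrt1 or to relatives beside it was not tested.

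Nearly all bivalent chromatin of the testis at this locus lay inside that of the ovary. Of the 76 bivalent bins of the testis, 75 (98.7%) were bivalent in the ovary, where the share over chr19 was 55.8%. On chr19 a further 24.9% of the bivalent bins of the testis were promoter in the ovary, against 0% in the window. The chr19 share was not matched for segment length or bivalent coverage, and other windows rich in bivalent state were not compared. Bins bivalent in the ovary and not in the testis numbered 157 (10.5% of the window) against 0.844% of chr19 bins. The reverse was found for 1 bin of the window, at the gene start, and for 0.231% of chr19 bins. Of the 232 bivalent bins of the ovary, 135 (58.2%) were Polycomb in the testis, 22 (9.48%) poised enhancer and 0 active or undefined. Over chr19 the bivalent bins of the ovary were Polycomb in the testis at a similar 59.4%, and bivalent at 25.7% against 32.3% in the window. The Polycomb share was thus near that of the chromosome.

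The downstream domain held most of these bins. In the downstream flank the bivalent state covered 36.8% in the ovary and 13.6% in the testis. Polycomb state took 35.6% of the flank in the ovary and 53.2% in the testis. Added together, both states covered 72.3% in the ovary and 66.8% in the testis. They were sparsest in the piece from 119.9 to 139.9 kb past the gene start, where the ovary held 10% bivalent, 21% Polycomb and 35% poised state, and the testis 0%, 41% and 24%. The longest bivalent segment of the ovary crossed the end of the gene, at chr19:25672601-25684600. It was 12000 bp long and ranked 7th of the 310 bivalent segments of chr19 in the ovary. In the testis 36.7% of it was bivalent and 51.7% Polycomb. The bivalent part in the testis, chr19:25680201-25684600, ended at the same position and was the 3rd longest of 476 in that tissue.

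Next came ovary segments of 7600 bp at chr19:25685801-25693400 and 6200 bp at chr19:25694601-25700800. The testis segments inside them were shorter, 2600 bp at chr19:25685801-25688400 and 1800 bp at chr19:25696801-25698600. A second bivalent area lay between 58.2 and 75.0 kb past the end of the gene. There the ovary had segments of 11000 bp, chr19:25737001-25748000, and 5400 bp, chr19:25748401-25753800. In the testis the first held 45.5% bivalent state, including a segment of 3800 bp that ended at the same position, 25748000, and the second was Polycomb over 100%. In the ovary this area lay inside an unbroken run of bivalent and Polycomb bins 27600 bp long, the 3rd longest of 27348 such runs on chr19. The matching run of the testis, 22000 bp long, ranked 4th of 28375.

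Few bivalent segments lay in the window, so shared segments are given as counts. In the ovary 3 of 8 had no base in common with a bivalent segment of the testis, against 51.9% on chr19, and in the testis 1 of 7 had none in common with the ovary, against 64.7%. The chr19 shares were not matched for length, and the segments here had medians of 5800 bp in the ovary and 1800 bp in the testis.

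**Figure D3:**
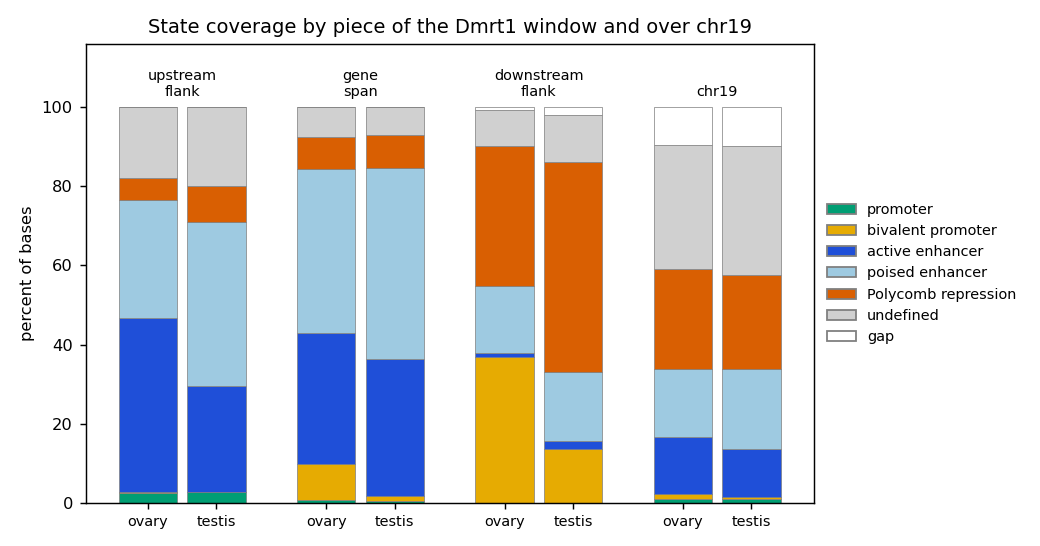
Percent of bases in each state in the upstream flank, the gene span and the downstream flank of the Dmrt1 window and over chr19, for ovary and testis; each bar sums to 100%. The downstream flank holds 36.8% of bivalent state in the ovary against 13.6% in the testis, with more orange Polycomb state in the testis.

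Polycomb state was higher in the testis at this window, and lower in the testis over chr19. It covered 16.5% in the ovary and 23.7% in the testis, a difference of 7.20 points that ranked 9th highest of 203 windows. Over chr19 the testis held less of it, 23.6% against 25.2%. Bins in the Polycomb state in the testis alone made up 226 of 1500 (15.1%), against 12.8% on chr19, and 146 of them lay in the downstream flank. The reverse was seen in 118 bins (7.87%), against 14.3% on chr19. Of the 226, 135 were bivalent in the ovary. When bivalent and Polycomb states were joined, 91 bins (6.07%) carried them in the testis alone, against 12.3% of chr19 bins, and 139 (9.27%) in the ovary alone, against 14.5%. Joined coverage was 31.9% in the ovary and 28.7% in the testis, a ratio of 1.11, near the 1.09 of chr19 (26.3% and 24.2%). In the gene span the Polycomb shares were 8.10% and 8.30%.

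**Figure D4:**
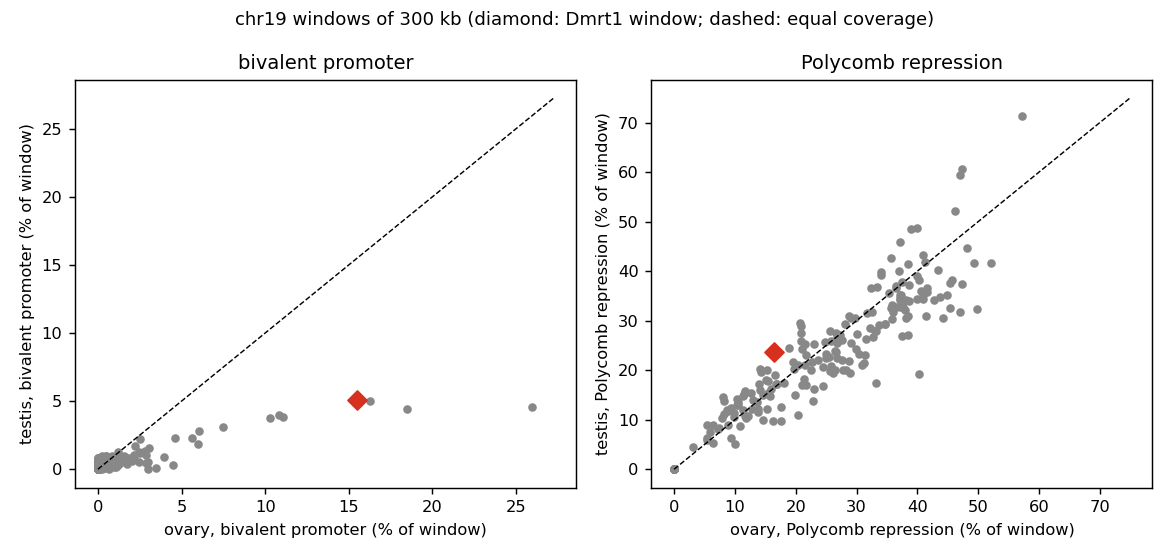
Each point is 1 of 203 adjoining chr19 windows of 300 kb, by the percent of the window in the bivalent promoter state (left) and in the Polycomb state (right) in ovary and testis; the dashed line marks equal coverage. The Dmrt1 window (diamond) has the highest bivalent share in the testis, 5.07% against 5% in the next window, and lies above the line for Polycomb state.

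Upstream of the gene the active enhancer state was more extensive in the ovary. It covered 43.8% of the upstream flank in the ovary and 26.8% in the testis, while the poised enhancer state covered 30% and 41.4%. Bins active in the ovary alone, in promoter or active enhancer state, made up 110 of 500 (22%) there, and 186 of 1500 (12.4%) in the whole window against 7.50% on chr19. Bins active in the testis alone made up 111 of the window (7.40%) against 4.91% on chr19, and 26 of them lay in the upstream flank. Of the active enhancer bins of the ovary in this flank, 48.9% were active enhancer in the testis, the same as the 48.9% of chr19. Of those of the testis, 79.9% were active enhancer in the ovary, against 59.2% on chr19. Active state covered 27% of the window in the ovary and 22% in the testis, against 15.6% and 13.0% of chr19. Active enhancer state was also higher in the ovary over all of chr19, 14.6% against 12.0%, a ratio of 1.21 that the window nearly matched at 1.24; the upstream flank had 1.63.

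The ovary excess upstream was strongest between -60.1 and -40.1 kb from the gene start, where active states covered 40% in the ovary and 7% in the testis, and Polycomb state 6% and 20%. Here the ovary carried promoter segments of 200 and 400 bp, at chr19:25531601-25531800 and chr19:25532401-25532800, that shared no active base with the testis. Around them an unbroken stretch of 1600 bp, chr19:25531601-25533200, was active in the ovary and poised, Polycomb or undefined in the testis. Nearby, ovary enhancer segments of 1400 bp, chr19:25523601-25525000, and 1000 bp, chr19:25525201-25526200, had no active base in the testis. Of the 60 active enhancer segments of the window in the ovary, these were the ones of at least 1000 bp that the testis did not share.

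Nearer to the gene, active stretches of the ovary were shared to unequal degrees. The longest active stretch of the ovary, 7400 bp at chr19:25552001-25559400, was active in the testis over 70.3% of its length. A stretch of 4400 bp at chr19:25560601-25565000 was active in the testis over 81.8%. Closer to the gene start than these, another of 4400 bp, chr19:25566801-25571200, was active in the testis over 31.8% and poised over 59.1%. Nearer still, a shorter ovary segment of 1000 bp, chr19:25571401-25572400, was active in the testis over 60%. Both gonads had promoter segments in this area at neighbouring but separate positions. In the ovary they stood at chr19:25553801-25554200 and chr19:25561401-25562000, and in the testis at chr19:25555201-25555800 and chr19:25562801-25563600, each over active enhancer or poised state of the other tissue. At the far upstream edge, promoter segments of 1000 bp overlapped, chr19:25480801-25481800 in the ovary and chr19:25481201-25482200 in the testis.

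Inside the gene, active states were about as extensive in the ovary as in the testis. Active states covered 33.8% of the gene span in the ovary and 34.8% in the testis. Active enhancer state alone was slightly lower in the ovary here, 33.0% against 34.4%, unlike in the window as a whole. Bins active in 1 gonad alone numbered 70 for the ovary (14.2% of the gene span, against 7.50% of chr19) and 75 for the testis (15.2% against 4.91%). Of the active enhancer bins of the ovary in the gene span, 58.3% were active enhancer in the testis, against 48.9% on chr19. Of those of the testis, 55.9% were active enhancer in the ovary, against 59.2% on chr19. The first 20 kb of the gene held 51% in the ovary and 38% in the testis, and the piece from 59.9 to 79.9 kb past the start held 36% and 55%. The longest active stretch of the testis in the window, 4800 bp at chr19:25588601-25593400, lay 8.50 kb past the gene start and was active in the ovary over 87.5% of its length.

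One enhancer of the gene body stood out for the testis. A segment of 2400 bp at chr19:25616801-25619200, from 36.7 to 39.1 kb past the start, carried the active enhancer state in the testis; in the ovary 50% of it was poised, 33.3% Polycomb and 16.7% undefined. By length it ranked 37th of 5532 stretches of chr19 active in the testis alone. The next such stretch of the gene, 1200 bp at chr19:25655401-25656600, ranked 362nd. For comparison, the longest stretch of the window active in the ovary alone, 2000 bp at chr19:25487201-25489200, ranked 240th of 7109 and was poised over 100% in the testis.

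Counted as segments, 20 of 60 active enhancer segments of the ovary shared no active base with the testis, against 42.6% on chr19, and 26 of 75 of the testis shared none with the ovary, against 38.1%. Promoter segments were fewer. Of 8 in the ovary, 3 shared none, against 24.6% on chr19, and of 6 in the testis, 3 shared none, against 12.5%; of the latter, those 400 and 200 bp long flank the gene start and the other, 200 bp long, lies 70.1 kb past it.

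**Figure D5:**
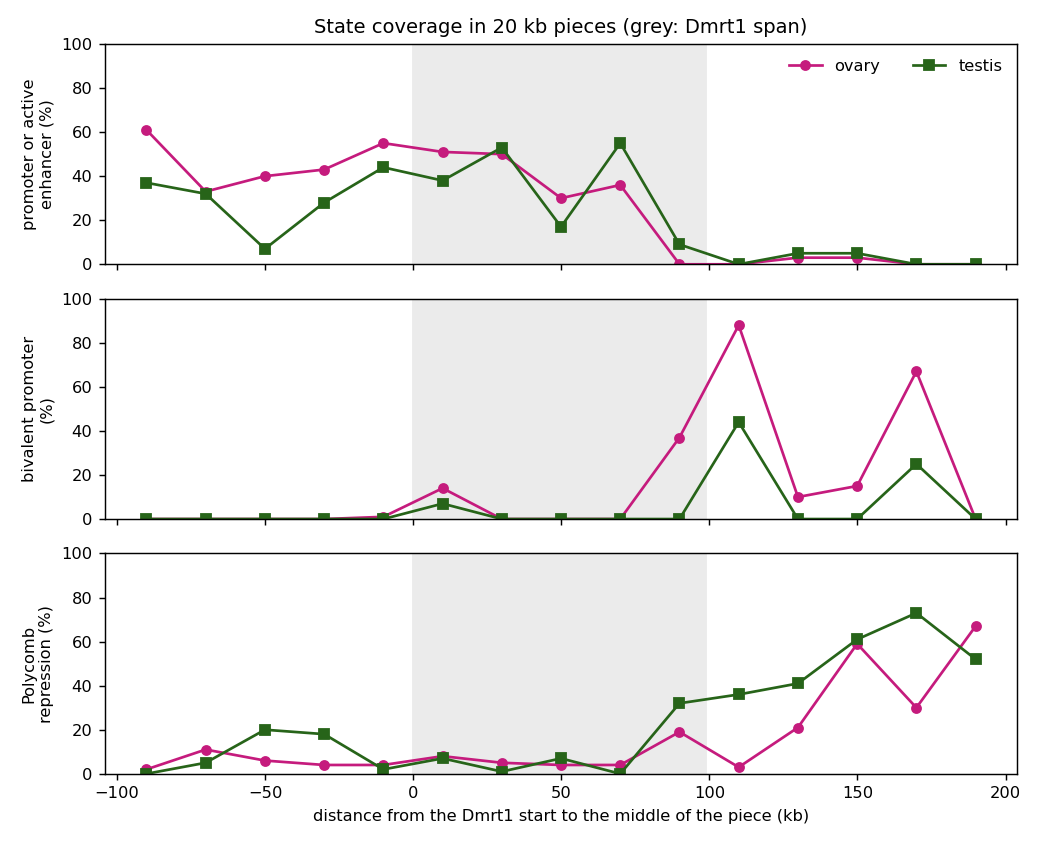
Coverage of active states (promoter or active enhancer), bivalent promoter and Polycomb state in 15 adjoining pieces of 20 kb, by distance of the middle of the piece from the Dmrt1 start in kb; the grey band is the gene. Active state in the testis drops to 7% between -60.1 and -40.1 kb, where the ovary holds 40%, and the bivalent peaks past the gene reach 88% and 67% in the ovary against 44% and 25% in the testis.

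Along the window, bivalent coverage was higher in the ovary in 7 of 15 pieces of 20 kb and in the testis in 0, and the other 8 pieces held 0% of it in both gonads. Active coverage was higher in the ovary in 7 and in the testis in 5. Poised coverage was higher in the testis in 10 and in the ovary in 3. The poised excess in the testis was also that of the chromosome, with 20.3% of chr19 against 17.0% in the ovary; in the window it was 35.6% against 29.3%, and its difference of 6.27 points ranked 58th of 203.

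Of 191 other chr19 windows with at most 50% gap state, 3 were nearest to the Dmrt1 window in their differences between testis and ovary over the 7 states, by Euclidean distance in percentage points. The nearest was chr19:44980001-45280000, at a distance of 5.96, with 18.5% bivalent state in the ovary and 4.40% in the testis. It was followed by chr19:43480001-43780000 at 6.34, with 16.3% and 5.00%, and chr19:37480001-37780000 at 7.58, with 11.1% and 3.80%. Genes in these windows were not named, since gene positions in mm9 were not used here. The Dmrt1 window differed from these 3 in its active enhancer state, 25.9% in the ovary against 19.1%, 13.9% and 9.13%. The 3 were picked by differences and not by levels. Another window, chr19:45280001-45580000, held 10.3% bivalent and 26.7% active enhancer state in the ovary, so the pairing was not particular to Dmrt1. Among all 203 windows it ranked 50th for active enhancer state in the ovary and 44th in the testis.

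For the mole, the gene models deposited with the study place DMRT1 on scaffold 15 of the talOcc3 assembly, on the plus strand at 19940607 to 20035259. It is 1 model of 7 exons and 94.7 kb, matching positions 503 to 1268 of its target; the earlier positions of the target are not in the model. Its neighbours upstream are KANK1, DOCK8, FOXD4L1, PGM5 and TMEM252, and downstream DMRT2, SMARCA2, C8orf59, VLDLR and KCNV2. KANK1 ends 63.5 kb upstream and DMRT2, with 3 exons, starts 77.7 kb downstream on the same strand. DMRT3 has no model of that name there; the RefSeq gene table of the mole, assembly MPIMG_talOcc4v2.1, lists it between DMRT1 and DMRT2. A short model named as a copy of STX8, 219 bp long and on the minus strand, lies inside the DMRT1 span. Of 8 genes of the DMRT family, 6 (DMRT1, DMRT2, DMRTA1, DMRTA2, DMRTB1 and DMRTC2) had a talOcc3 model, DMRT3 and DMRTC1 had none by that name, 8 were in the RefSeq table and 0 had more than 1 model. Mole chromatin states lie on another assembly, talOcc4, and were not read at DMRT1, so the chromatin of the mole ovotestis at this gene was not analysed here.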

How the data were processed

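The mouse segmentations were deposited as tables of state names (a categorical label, unit other) on mm9; per the file headers they are EpiCSeg output for ovary and testis, and no version is given there. Per the submitters' processing notes, STAR 2.6.1d and the build mm9 were used, in a role not stated there. No labelled sample is tied to either mouse table, so both were used as the authors' tables of the whole series; the 24 labelled libraries are mole samples and their segmentations were not used. States were read into 200 bp bins, with positions counted from 1, using Python 3.11.15 and NumPy 2.4.6. The gene span and window were given for this work. Active means promoter or active enhancer; a segment is shared when it has at least 1 active base (for bivalent segments, 1 bivalent base) in the other gonad.

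Windows of 300 kb adjoin the Dmrt1 window along chr19, and ranks among them are descriptions. Code for bins and segments was checked on constructed segmentations. Depth is unknown, and with 1 segmentation per tissue no test, interval or replicate error could be given. Named segments are those at the gene start and the 5 longest of each kind, except short promoter, enhancer and 1-gonad segments and stretches, which were picked after their values were seen. The comparison of bivalent bins was also added then. The locus, the family list and the design were chosen with earlier results of these data known. No sequence was printed, since none was among the files used here.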

Additional observations from a re-analysis of the deposited data

How the results depend on the processing

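With 1 segmentation per tissue, depth and replicate spread are unknown, and unequal totals of a state between the segmentations limit every difference. No paired analysis was possible because the mouse segmentations carry no replicate numbers and no result comes from a test. Of 58 alternatives, 35 stayed within the counting interval, or within 1.5 times for counts. Bins adjoin, so that interval is narrow. The cause was not tested for those that moved, other than by their construction.

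The bivalent difference, testis minus ovary, was -6.20 points with 100 kb added on each side, -7.69 in the gene span alone and -6.53 with the window moved 50 kb upstream. The Polycomb difference was 0.202 in the gene span. The active enhancer difference reversed to 1.42 in the gene span and was -9.07 with the window moved upstream; the poised one was 2.6 with the window moved downstream. Bins in another state were 36.4% and 16.9% when the same state within 200 or 1000 bp matched (alternatives added after seeing the data). With promoter alone as active, 13 bins were active in the testis only and 14 in the ovary only; with bivalent added, the ovary had 343. Polycomb bins of the testis only were 91 with bivalent added. Leaving out the downstream domain and the last 6 kb of the gene left 10 bins bivalent in the ovary only, and with a match within 1000 bp 0 were bivalent in the testis only (both added after seeing the data). The share of windows with a lower bivalent difference was 0.441% over all chromosomes. For the active enhancer difference it was 35.5% after scaling each state to the same chr19 total. The poised difference gave 81.7% over all chromosomes and 63.5% after scaling. Active segments found only in the ovary were 2 at 1000 bp or more, and in the testis 15 at 400 bp or more and 3 at 1000 bp or more. Within 5 kb of the gene start the Polycomb difference was -5.88 points.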
